A study of Homo sapiens with 17 samples.

Results

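K562 is a human erythroleukaemia cell line. Small RNA was sequenced from K562 cells of the genotype Drosha_shRNA_KD, which carry a short hairpin RNA against Drosha that doxycycline (Dox) switches on. The libraries described here came from cells grown in 1 µg/mL Dox, or with water in its place, for 3, 13 or 31 d, so every group carried the hairpin construct and the groups differed in Dox and in time. The deposited tables each hold 1 Dox and water pair, with 2 pairs at 3 d (replicates 1 and 3), 3 at 13 d and 3 at 31 d. A table lists alignments, each a distinct start, end and strand on the human build hg19, with the ratio of 1 library of the pair to the other.

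The long fragments studied were the alignments of 31 to 42 nt that all 8 tables listed. There were 1634 of them. They came out of 41281 alignments of any length that were listed in all 8 tables, and out of 1469699 distinct alignments of 31 to 42 nt that were listed in at least 1 table, of which 1334177 were in a single table. The choice used length and listing and set no limit on the ratio, but listing and ratio are linked. Every ratio listed for them was finite and some were 0, so listing required a value in the denominator library but none in the numerator. A fragment lacking in the denominator library of any table was thus left out, which bears on the shares at 0 and the medians. The sources do not state which library of a pair is the numerator, so each value is given as numerator over denominator, with no direction for Dox, and it is assumed that all tables run the same way.

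Drosha, working with DGCR8 in the nucleus, cuts primary microRNA transcripts into hairpins, and Dicer then cuts the hairpins into mature microRNAs, which are shorter than the fragments described here. Small RNA libraries also hold longer pieces, which as general background can come from precursor hairpins and from the cut or decayed products of transfer, ribosomal, small nucleolar, mitochondrial and messenger RNA. Per the labels' protocols, the libraries were purified on a gel for inserts of 20 to 40 nt, so that the lengths studied lie in the upper part of that window, with 31 fragments of 41 nt and 30 of 42 nt past its edge. The files give positions and no gene names, the reference at hand is of another build, and no gene name or sequence is therefore attached to a position. The RNA class lists and the K562 marker microRNAs could not be matched, so the labelled cell type was not checked against its markers.

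The long fragments thinned out quickly with length. There were 405 of 31 nt, 332 of 32 nt and 231 of 33 nt, which together made 968 of the 1634 (59.2%). Lengths of 34 to 36 nt held 379 and lengths of 37 to 42 nt held 287, down to 30 at 42 nt. The median length was 33 nt. Both strands were used about equally, with 805 on the plus and 829 on the minus strand.

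They were spread unevenly over the chromosomes. Chromosome 11 held 338 (20.7%), against 7.51% of the shorter alignments listed in all 8 tables. Chromosome 1 held 255 (15.6%, against 9.84%) and chromosome 5 held 209 (12.8%, against 7.34%). Chromosome 10 held 4 (0.245%, against 3.73%). Alignments that overlap come from the same stretch of genome, and no test was made of these shares. On chromosome 11 a single site held 112 of the 338, whereas the fragments of chromosomes 1 and 5 lay at 59 and 42 sites.

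Overlapping fragments on 1 strand were joined into sites. The 1634 fragments formed 401 sites, of which 151 held 1 fragment, 80 held 2 and 170 held 3 or more. The 8 largest sites held 336 fragments (20.6%), and 33 sites with at least 10 fragments held 695. The largest, at chr11:122874321-122874375 on the plus strand, held 112 fragments within 55 nt, with 23 different 5′ ends and 21 different 3′ ends. The next were chr5:134262280-134262331 on the minus strand with 52, chr17:22023735-22023802 on the plus strand with 33, chr5:134259766-134259810 on the plus strand with 31 and chr11:10531053-10531094 on the minus strand with 30. The remaining 3 of the 8 were chr2:149639353-149639427 on the minus strand with 28, chr7:145694442-145694525 on the plus strand with 27 and chr1:565797-565842 on the minus strand with 23.

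Sites also lay near each other. When sites of 1 strand up to 5000 nt apart were joined, 30 runs of 3 or more sites held 148 sites and 789 fragments (48.3%). The run with most fragments, chr11:10529570-10531806 on the minus strand, held 88 fragments in 11 sites. On chromosome 1, chr1:173833289-173836845 on the minus strand held 69 in 9 sites. On chromosome 5, runs on opposite strands overlapped, with 56 fragments at chr5:134261274-134262609 on the minus strand and 42 at chr5:134259766-134263801 on the plus strand.

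Most sites also held shorter alignments on the same strand. Alignments of 25 to 30 nt listed in all 8 tables overlapped 305 of the 401 sites, and alignments of 20 to 24 nt overlapped 258. No alignment of 10 to 30 nt listed in all 8 tables overlapped the other 77. A 5′ end was shared with an alignment of 25 to 30 nt by 998 fragments (61.1%) and a 3′ end by 859 (52.6%). With alignments of 20 to 24 nt, 660 fragments (40.4%) shared a 5′ end and 526 (32.2%) a 3′ end. Neither end was shared with an alignment of 20 to 24 nt by 609 (37.3%). Within sites of 3 or more fragments, the most used 5′ end was shared by more fragments than the most used 3′ end at 75 sites, by fewer at 57 and by equally many at 38. Only 4 sites had long fragments on the opposite strand at the same place.

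The tables differed widely in how many long alignments they listed. Alignments of 31 to 42 nt made up 18.8% and 8.47% of the alignments in the 3 d tables, 13.3%, 5.87% and 6.47% in those of 13 d, and 14.7%, 2.50% and 0.212% in those of 31 d. The table of 31 d replicate 3 listed 6210 of them and that of 3 d replicate 1 listed 596059. Of 4859 long alignments listed in the other 7 tables, 33.6% were also in that of 31 d replicate 3, and 3225 were lacking there alone. Being listed in that table was thus the step that most long alignments listed elsewhere did not pass. Its ratios also took few distinct values. In the authors' deposited table of 31 d replicate 3, the ratio 0.822 alone stood for 203 of the 1139 fragments above 0 (17.8%), and 279 distinct ratios covered all 1139. In the other 7 tables the most frequent ratio covered 1.08% to 3.78%.

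A ratio of 0, which means that the numerator library had no read of the fragment, was rare in 5 tables and frequent in 3. The share of long fragments at 0 was 2.57% and 2.75% in the 3 d tables. It was 0.612%, 3.61% and 15.3% in 13 d replicates 1, 2 and 3. At 31 d it was 0.673%, 63.2% and 30.3% in replicates 1, 2 and 3. The 3 tables of 31 d thus ranged from nearly no fragment at 0 to most fragments at 0. Of 1634 fragments, 541 (33.1%) were above 0 in every table, 545 were at 0 in 1 table and 337 in 2. Zeros in 13 d replicate 3, 31 d replicate 2 or 31 d replicate 3 touched 1087 fragments, and 974 of these were at 0 in no other table. Both 31 d replicates 2 and 3 were at 0 for 447 fragments. All tables of a day were at 0 for 8 fragments at 3 d, 4 at 13 d and 10 at 31 d.

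**Figure D1:**
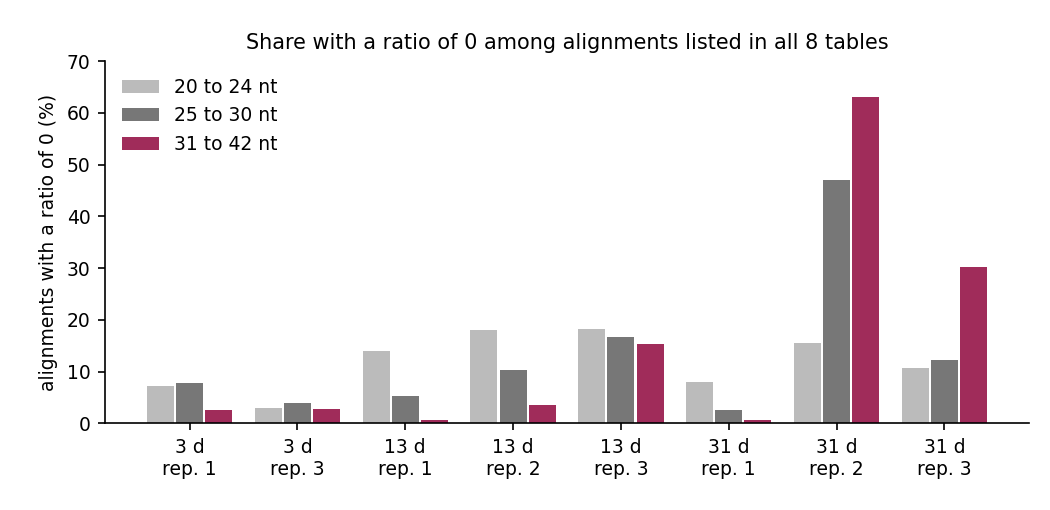
Percent of alignments with a ratio of 0 in each of the 8 tables, for 20 to 24 nt, 25 to 30 nt and 31 to 42 nt, among alignments listed in all 8 tables. The long fragments reach 63.2% in 31 d replicate 2 and 30.3% in 31 d replicate 3, and lie below the 20 to 24 nt alignments in the other 6 tables.

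Shorter alignments were at 0 less often in those 31 d tables. Among alignments of 20 to 24 nt, 15.5% were at 0 in 31 d replicate 2 and 10.8% in 31 d replicate 3, and 47.1% and 12.2% of those of 25 to 30 nt. In the other 6 tables the long fragments were at 0 less often than those of 20 to 24 nt, with differences of -14.4 to -0.291 percentage points. The mean difference over the 8 tables was 3.05 ± 20.9 percentage points (SD, n = 8), and an exact two-sided sign-flip permutation test over tables gave p = 0.782 (adjusted p = 0.938 over 6 such tests). Against 25 to 30 nt the mean difference was 1.62 ± 9.75 percentage points (SD, n = 8; exact permutation p = 0.609, adjusted p = 0.914). Without 31 d replicate 2 the means were -3.32 and -0.45, and without 31 d replicate 3 the second was -0.74, so the sign of the mean rests on these tables.

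For the 541 fragments above 0 in all 8 tables, the log2 ratio can be followed in every table. The 1093 others were at 0 in at least 1 table, 1032 of them in 31 d replicate 2, so the 541 leave out the fragments that were lowest there. The median was 0.30 and 0.14 in the 3 d tables. At 13 d it was 0.27, 1.10 and -3.08 in replicates 1, 2 and 3, and at 31 d it was 0.34, -5.32 and 1.18. In bulk RNA, fewer cells of a kind and less RNA per cell cannot be told apart in such a ratio. The tables of 1 day did not agree in sign: 13 d replicate 3 and 31 d replicate 2 had 0.370% and 0.739% of the 541 fragments above a ratio of 1, while the other 6 tables had 52.7% to 75.1%. No fragment was above 1 in every table, and 5 were below 1 in every table. With those 2 tables set aside, 98 were above 1 and 5 below 1 in all 6.

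**Figure D2:**
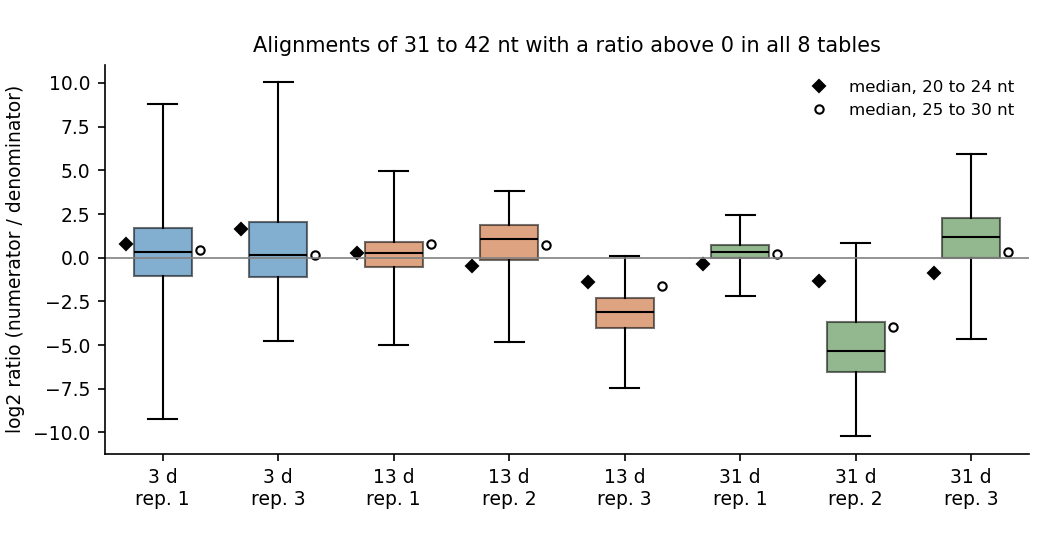
Log2 ratio of the 541 fragments of 31 to 42 nt above 0 in all 8 tables, by table; boxes span the quartiles with the median as a line, whiskers the lowest and highest value. Diamonds and circles give the medians of 20 to 24 nt and 25 to 30 nt; the long fragments fall lowest in 31 d replicate 2 (median -5.32) and 13 d replicate 3 (median -3.08).

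The alignments of 20 to 24 nt, the length range of mature microRNAs, had medians of 0.78, 1.64, 0.28, -0.45, -1.37, -0.34, -1.34 and -0.85 in the same order of tables. The long fragments were lower than these by 3.98 in 31 d replicate 2, by 1.71 in 13 d replicate 3 and by 1.50 in 3 d replicate 3, and higher by 2.02 in 31 d replicate 3 and by 1.55 in 13 d replicate 2. The mean difference was -0.43 ± 1.95 (SD, n = 8 tables; exact two-sided sign-flip permutation p = 0.602, adjusted p = 0.914). Against 25 to 30 nt it was -0.26 ± 0.81 (SD, n = 8; exact permutation p = 0.359, adjusted p = 0.914). Neither difference exceeded the spread between tables. Without 31 d replicate 2 the first mean was 0.078.

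The same comparison was made within sites, where a long fragment and an alignment of 20 to 24 nt overlapped on 1 strand and both had values above 0 in all 8 tables. There were 123 such sites. The long fragments of a site were lower than the shorter alignments at 122 of 123 in 31 d replicate 2 and at 117 in 13 d replicate 3, but at 15 in 31 d replicate 3. At 3 d they were lower at 48 and 47 sites in replicates 1 and 3. In 13 d replicates 1 and 2 and 31 d replicate 1 they were lower at 93, 60 and 77. The mean of the per-table medians was -0.79 ± 2.05 (SD, n = 8; exact permutation p = 0.383, adjusted p = 0.914), again within the spread between tables.

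Ratios moved with length without a break at 31 nt. From 30 nt, just outside the chosen range, to 31 nt, just inside it, the median changed from 0.53 to 0.48 in 3 d replicate 1, from 0.18 to -0.11 in 3 d replicate 3, and from -5.74 to -5.87 in 31 d replicate 2. In 31 d replicate 2 the median fell from 0.96 at 18 nt to -1.68 at 22 nt and -6.22 at 34 nt, and then climbed to -1.39 at 42 nt. In 3 d replicate 1 it stood at 0.48 at 31 nt and at -3.59 at 42 nt, and in 13 d replicate 1 at 0.65 and -2.03. In 31 d replicate 1 it lay between 0.22 and 0.64 at every length from 31 to 42 nt. Only 14 fragments stand behind each value at 40 and 42 nt, and 15 at 41 nt.

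**Figure D3:**
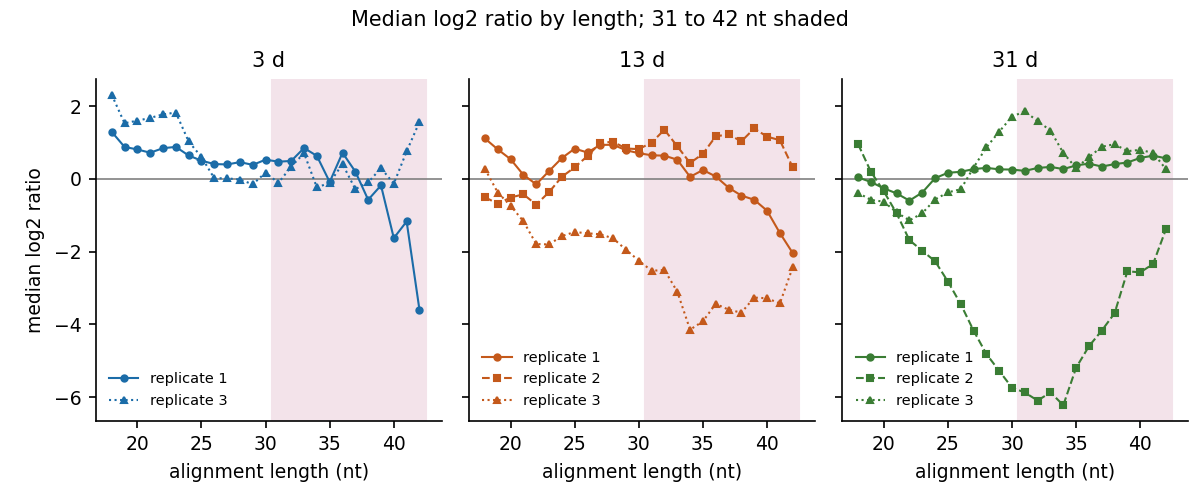
Median log2 ratio by alignment length from 18 to 42 nt, 1 panel per day and 1 line per table, over alignments above 0 in all 8 tables, with 31 to 42 nt shaded. The lines pass through 30 and 31 nt without a step; 31 d replicate 2 reaches -6.22 at 34 nt, while 31 d replicate 1 stays between 0.22 and 0.64 within the shaded range.

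Within the chosen lengths, fragments of 37 to 42 nt were compared with those of 31 to 33 nt. The longer ones were lower by 1.35 in 3 d replicate 1 and by 1.26 in 13 d replicate 1, and higher by 3.25 in 31 d replicate 2. The mean over tables was -0.03 ± 1.48 (SD, n = 8; exact permutation p = 0.953, adjusted p = 0.953). None of the 6 comparisons of length classes passed the threshold, and the smallest p that 8 tables allow is 0.00781.

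Across the 541 fragments, the tables of 3 d correlated with each other at Pearson r = 0.634. Those of 13 d correlated at 0.327, 0.387 and 0.708, the last between replicates 2 and 3. Those of 31 d correlated at 0.149 to 0.466. The 3 d replicate 1 and 31 d replicate 1 tables ran against each other at -0.458. These correlations are across fragments of which many overlap and so come from the same stretch of genome, and describe these tables only.

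Single fragments were then tested by day with limma on alignments of all lengths, 1 mean per day, with Benjamini-Hochberg adjustment over all alignments tested at 0.05. At 3 d, 1555 of the 1634 fragments had a value in both tables. Of these, 29 were called higher in the numerator (background over all lengths 3.26%) and 22 lower (background 0.432%). In either direction 3.28% of the fragments were called, against 3.69% of all alignments, so the share is close to that of the background. The called values ran from 4.11 to 9.10 among the higher and from -6.37 to -4.18 among the lower fragments, and the lower ones were short for the range, with 19 of 22 at 31 to 33 nt. The tables were shifted against each other: the median log2 ratio of 26250 alignments of all lengths above 0 in all tables was 0.59 and 1.60 at 3 d, then 0.83, -0.16 and 0.03 at 13 d, and 0.26, 0.95 and -0.59 at 31 d. After each table was centred on that median, 27 were higher and 220 lower, while 15.8% of all alignments were called. After centring within length classes 82 were higher and 125 lower, while 21% of all alignments were called. Calls thus rose at all lengths, and the balance of directions at 3 d follows the centring. Without 3 d replicate 1 there were 14 calls (13 higher, 1 lower), without 3 d replicate 3 there were 29 (12 higher, 17 lower), and with 13 d replicate 3 and 31 d replicate 2 both set aside there were 83 (40 higher, 43 lower).

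At 13 d, 1362 fragments had a value in all 3 tables. None was called higher (background 6.1%) and 80 were called lower (background 4.49%), with values from -5.97 to -3.01. In either direction 5.87% of the fragments were called, against 10.6% of all alignments. The tables of the day had 1 direction for 74 of the 80. The calls lay at 30 sites, with 21 of the 80 at chr11:122874321-122874375, 9 of 31 fragments at chr5:134259766-134259810 and 6 of 20 at chr8:68497701-68497752. Without 13 d replicate 3, whose median was -3.08, a single call was left, and without 13 d replicate 2 there were 9. Without 31 d replicate 2 there were 129. Of all alignments, 0.672%, 0.700% and 15.2% were called in these fits, in that order.

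At 31 d, 554 fragments had a value in all 3 tables, since 1032 were at 0 in replicate 2. None was called higher (background 0.281%) and 9 were called lower (background 1.26%), at 4 sites. In either direction 1.63% of the fragments were called, against 1.55% of all alignments, so the share is close to that of the background. Of the 9, 5 lay at chr11:122874321-122874375 and 2 at chr1:565797-565842. Without 31 d replicate 2, 1139 fragments could be tested and none passed, without 31 d replicate 3 there were 3 calls, and without either table of 3 d there were 14.

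Calls at different days met in few fragments. Of 1331 fragments tested at both 3 d and 13 d, 10 (0.751%) were lower at both, out of 48 called at 3 d and 77 at 13 d; of all 34539 alignments tested at both, 32 (0.0926%) were lower and 792 higher at both. Of 548 tested at both 3 d and 31 d, none was called at both, and likewise for the 545 tested at both 13 d and 31 d. Of all alignments tested, 0.156% and 1.26% were called at both days of these pairs.

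The days were compared in the same fit. From 3 d to 13 d, 46 of 1331 fragments differed, 45 of them lower at 13 d (background 11.0%) and 1 higher (background 0.266%). From 3 d to 31 d, 41 of 548 differed, 40 of them lower at 31 d (background 6.27%) and 1 higher (background 1.2%). In either direction 3.46% of the fragments differed at 13 d and 7.48% at 31 d, against 11.3% and 7.47% of all alignments, so the second share is that of the background. These contrasts share the 3 d tables. Between 31 d and 13 d limma called none of 545, and 6 had an unadjusted p under 0.05. Without 3 d replicate 1, 3 d replicate 3 or 13 d replicate 3, the first count was 25, 14 or 12. The second was 15 without 3 d replicate 1, and after centring within length classes it was 68, with 23 higher and 45 lower. Without 31 d replicate 2 the second split was 12 higher and 17 lower of 1109, and with 13 d replicate 3 also set aside 16 higher and 19 lower. Of all alignments, 5.15% and 6.87% differed in these fits. The near single direction of the second count thus rests on 31 d replicate 2.

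The fragments with the highest called values at 3 d lay on chromosome 1. The fragment chr1:16872401-16872433 on the minus strand had log2 ratios of 8.77 and 9.43 in the 3 d tables, 0.28, 1.70 and -2.31 in 13 d replicates 1, 2 and 3, and -1.78, -8.26 and 1.42 in 31 d replicates 1, 2 and 3. Its 3 d mean was 9.10 ± 1.32 (SE, n = 2 tables; limma adjusted p = 3.56e-08). That SE is common to all fragments at 3 d, so the p-value does not measure the spread of these 2 tables. The site that holds it, tested on the median of its fragments, had a 3 d mean of 9.07 and a larger p-value (limma adjusted p = 0.00123). It was far above 1 in both 3 d tables, and no later value came near these. A neighbour that ends 1 nt away from it, chr1:16872402-16872433, gave 8.24 and 9.81 at 3 d, then 0.27, 2.32 and -1.69 at 13 d, and -1.73, -7.78 and 1.71 at 31 d.

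The third, chr1:146544845-146544878 on the plus strand, gave 6.79 and 10.03 at 3 d, then 0.75, 1.76 and -2.92 at 13 d, and -1.49, -8.30 and 1.45 at 31 d. Its 3 d mean was 8.41 ± 1.32 (SE, n = 2; limma adjusted p = 6.23e-07). The 3 fragments followed a like course over the 8 tables, with the 3 d values above all later ones. Low values in 13 d replicate 3 and 31 d replicate 2 were common to the 541 fragments, whose medians there were -3.08 and -5.32. The 3 were picked as the highest at 3 d, and the first 2 overlap at 1 site. All 3 stayed called under each of the 15 alternatives run.

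The fragments with the lowest called values at 3 d lay on chromosomes 14 and 11. The fragment chr14:20811478-20811509 on the minus strand gave -9.25 and -3.49 at 3 d, then -0.82, -1.74 and -3.93 at 13 d, and 1.36, -3.87 and 1.30 at 31 d, with a 3 d mean of -6.37 ± 1.32 (SE, n = 2; limma adjusted p = 0.000374). Its 3 d values differed by more than 5 log2 units between replicates, and without replicate 1 the value was -3.49 and no longer called (limma adjusted p = 0.982). On the same strand and close by, chr14:20811277-20811307 gave -5.95 and -6.72 at 3 d, then -1.47, -1.06 and -2.16 at 13 d, and -0.47 and -0.28 in 31 d replicates 1 and 3, with 0 in replicate 2. Both of its 3 d values were below all of its later ones above 0, and it stayed called under all 14 alternatives that gave it a value.

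The third lowest, chr11:59394457-59394488 on the minus strand, gave -7.85 and -2.71 at 3 d, then -2.35, -3.59 and -7.15 at 13 d, and 0.41 and -2.43 in 31 d replicates 1 and 3, with 0 in replicate 2. It was called at 3 d (-5.28 ± 1.32, SE, n = 2; limma adjusted p = 0.00452) and at 13 d (-4.36 ± 1.08, SE, n = 3; limma adjusted p = 0.00428). Without 3 d replicate 1 its 3 d value was -2.71 and not called (limma adjusted p = 0.982).

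At 13 d the lowest called fragment was chr17:27188412-27188442 on the minus strand, with -4.50, -5.54 and -7.88. At 3 d it had stood at 0.97 and 4.93, and at 31 d it stood at -1.60 and -2.53 in replicates 1 and 3 and at 0 in replicate 2. It was above 1 in both 3 d tables and below 1 in each later one, and its 13 d mean was -5.97 ± 1.08 (SE, n = 3; limma adjusted p = 2.5e-05), called under all 14 alternatives that gave it a value. The next, chr1:28975115-28975146 on the plus strand, gave -6.97 and -2.53 at 3 d, then -2.60, -4.39 and -7.47 at 13 d, and 0.40, -5.78 and -1.45 at 31 d. A 42 nt fragment of the largest site, chr11:122874322-122874363, gave -6.31 and -0.34 at 3 d, then -4.18, -3.83 and -6.34 at 13 d, and 0.80, -2.97 and -2.09 at 31 d. The calls of the last 2 were lost without 13 d replicate 3, at -3.50 (limma adjusted p = 0.193) and -4.01 (limma adjusted p = 0.108).

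At 31 d the lowest called fragment was chr6:133137944-133137977 on the plus strand, with -1.59, -7.70 and -3.09, after 1.36 and -0.57 at 3 d and -0.16, -1.57 and -4.54 at 13 d. A second, chr11:122874343-122874373 on the plus strand, gave -1.25, -10.01 and -0.87 at 31 d, after 2.27 and 0.37 at 3 d and 1.05, -1.56 and -3.84 at 13 d. The third, chr1:565799-565832 on the minus strand, gave -1.85, -8.17 and -1.87 at 31 d, after 2.56 and 2.77 at 3 d and -2.44, -0.22 and -5.40 at 13 d. In all 3 the replicate 2 value lay far below the others, and without that table none was called, at -2.34, -1.06 and -1.86 (limma adjusted p = 0.92, 0.989 and 0.989). Without 31 d replicate 3 the first and the third were lost too (limma adjusted p = 0.116 and 0.0787).

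Overlapping fragments come from the same stretch of genome, so sites were tested as well, on the median log2 ratio of a site's fragments above 0 in all 8 tables. Of the 401 sites, 187 could be tested, among 14256 sites of all lengths. At 3 d, 9 long sites were called higher (background 25.2%) and 3 lower (background 0.687%). At 13 d, 3 were called lower (background 10.0%) and none higher (background 10.3%). At 31 d limma called none of the 187 (background 3.06%), with 14 at an unadjusted p under 0.05. No site was called in 1 direction at all 3 days.

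The 9 higher sites at 3 d were chr1:16872401-16872433 and chr1:147774811-147774844 on the minus strand, chr1:146544845-146544878, chr1:147505110-147505141 and chr1:147753543-147753577 on the plus strand, chr5:79948121-79948153 and chr15:45493421-45493455 on the plus strand, and chr15:45492575-45492610 and chr17:73030494-73030525 on the minus strand. Together they held 21 fragments. The sites at chr1:147753543, chr5:79948121 and chr15:45493421 were named by the rule for sites of 3 or more fragments, and the other 6 have fewer and were listed after their values were seen. At 7 of the 9 sites 2 or more fragments shared a single 5′ end and differed in their 3′ ends, 1 site held 1 fragment, and chr5:79948121-79948153 had 2 different 5′ ends. Of the 187 tested sites, 26 had 2 or more fragments with a single 5′ end and 30 held 1 fragment.

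The 9 sites differed from each other most in the 3 d tables. They ranged from 4.87 to 8.51 in 3 d replicate 1 and from 4.07 to 9.62 in 3 d replicate 3. At 13 d they ranged from 0.20 to 1.11, from 1.50 to 2.48 and from -4.55 to -1.81 in replicates 1, 2 and 3. At 31 d the ranges were -1.76 to -0.36, -8.97 to -6.01 and 0.04 to 2.97. The sites were chosen by their 3 d values, so their sign at 3 d is given by the choice, and in 13 d replicate 3 and 31 d replicate 2 nearly all long fragments were below 1. Their 3 d calls used 2 tables: without replicate 3 none of the 9 was called, and without replicate 1 there were 5 still called. After centring, 4 of them stayed called.

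**Figure D4:**
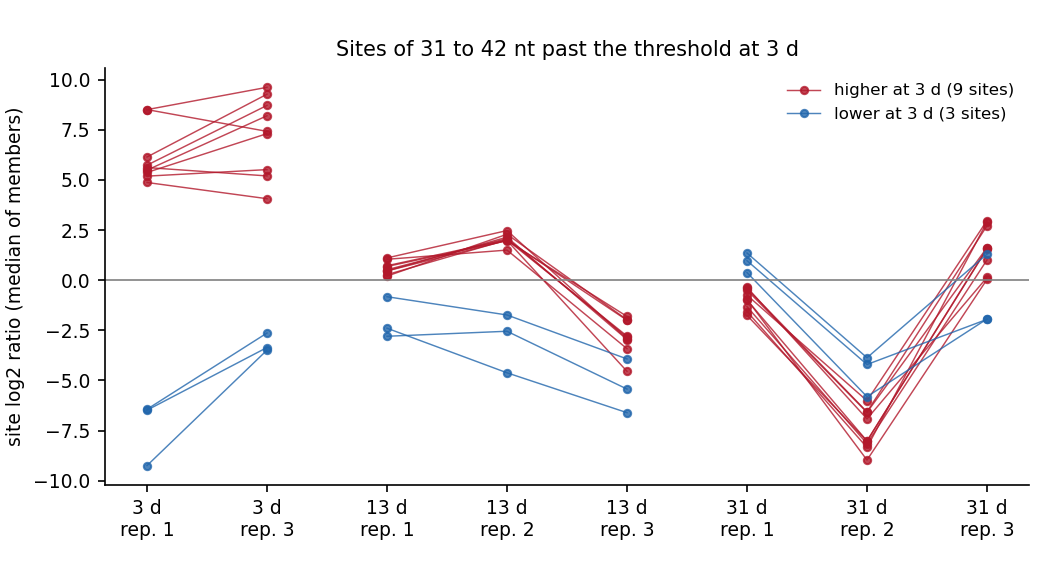
Log2 ratio of each site of 31 to 42 nt called at 3 d, as the median of its fragments, in the 8 tables; lines join the tables of 1 day. The 9 higher sites (red) lie from 4.07 to 9.62 in both 3 d tables and from -8.97 to -6.01 in 31 d replicate 2, and the 3 lower sites (blue) are below 0 in every table of 3 d and 13 d.

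The highest of them, chr1:16872401-16872433, had a 3 d mean of 9.07 ± 1.59 (SE, n = 2; limma adjusted p = 0.00123). Of the sites with 3 or more fragments, chr1:147753543-147753577 gave 5.49 and 8.20 at 3 d, then 0.46, 2.15 and -2.96 at 13 d and -0.99, -8.02 and 1.59 at 31 d, with a 3 d mean of 6.85 ± 1.74 (SE, n = 2; limma adjusted p = 0.00938). These values are of the 1 of its 3 fragments that was above 0 in all tables. Over all 3 fragments the medians at 3 d were 5.49 and 5.57. The site chr15:45493421-45493455, all of whose 3 fragments were above 0 in all tables, gave 5.19 and 5.52 at 3 d, then 0.46, 1.98 and -4.55 at 13 d and -0.41, -6.57 and 2.72 at 31 d. Its fragments and those of chr15:45492575-45492610 lie on opposite strands, close to each other. The site chr5:79948121-79948153 gave 4.87 and 4.07 at 3 d, then 0.20, 2.29 and -1.97 at 13 d and -0.75, -6.01 and 2.97 at 31 d.

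The 3 lower sites at 3 d were chr14:20811478-20811509, chr11:59394457-59394489 and chr1:28975112-28975146. The site chr11:59394457-59394489 held 5 fragments, of which 2 were above 0 in all 8 tables, and gave -6.48 and -3.36 at 3 d, then -2.80, -2.55 and -5.43 at 13 d and 0.97, -4.21 and -1.95 at 31 d. Its means were -4.92 ± 1.28 (SE, n = 2; limma adjusted p = 0.00877) at 3 d and -3.59 ± 1.04 (SE, n = 3; limma adjusted p = 0.0239) at 13 d. The site chr1:28975112-28975146 held 6 fragments, of which 2 were above 0 in all 8 tables, and gave -6.44 and -2.64 at 3 d, then -2.40, -4.62 and -6.61 at 13 d and 0.38, -5.81 and -1.93 at 31 d. Its means were -4.54 ± 1.40 (SE, n = 2; limma adjusted p = 0.0226) at 3 d and -4.54 ± 1.14 (SE, n = 3; limma adjusted p = 0.0146) at 13 d. All 3 sites were below 1 in all 5 tables of 3 d and 13 d and above 1 in 31 d replicate 1. Without 3 d replicate 1 none of the 3 was called at 3 d, and without 3 d replicate 3 only chr14:20811478-20811509 was.

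The third site lower at 13 d was chr8:68497701-68497752 on the minus strand, with 20 fragments of which 1 was above 0 in all 8 tables. It gave -1.87, -2.97 and -5.73 at 13 d (mean -3.52 ± 1.14, SE, n = 3; limma adjusted p = 0.0367), -3.68 and -2.24 at 3 d, and -0.27, -6.55 and -0.39 at 31 d. These values are of that 1 fragment, which was below 1 in all 8 tables. Over all 20 fragments of the site the median log2 ratio in 31 d replicate 1 was 0.19. None of the 3 sites was called at 13 d without replicate 2 or without replicate 3 of that day, and 1 was without replicate 1. Counts of called long sites also moved when a table was left out: at 3 d there were 5 without 3 d replicate 1, 1 without 3 d replicate 3 and 23 without 31 d replicate 2, at 13 d 11 without 31 d replicate 2 and 6 without 31 d replicate 3, and at 31 d 2 without 31 d replicate 3. After centring within length classes, 6 sites were higher and 11 lower at 13 d.

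The 8 largest sites were not called at any day on the ratios as deposited. After centring within length classes, chr1:565797-565842 was called at all 3 days (2.45, -1.99 and -2.13; limma adjusted p = 0.0152, 0.0164 and 0.0292), chr5:134259766-134259810 at 3 d and 13 d (-2.56 and -2.29; limma adjusted p = 0.0179 and 0.0117) and chr2:149639353-149639427 at 3 d (-2.09; limma adjusted p = 0.0421). That centring was added after seeing the data. Under it 48 of the 187 long sites and 40.5% of sites of all lengths were called at 3 d, so such calls were common. At the largest, chr11:122874321-122874375, the median over the 41 of 112 fragments above 0 in all tables was -0.15 and -0.83 at 3 d, then 0.62, -1.10 and -4.52 at 13 d, and -0.03, -6.56 and -0.30 at 31 d. In 31 d replicate 2, 66 of its 112 fragments were at 0. The site chr5:134262280-134262331 gave -0.82 and -1.91 at 3 d, then 0.0019, -0.72 and -4.65 at 13 d and 0.44, -5.69 and 0.30 at 31 d. The site chr5:134259766-134259810 was below 1 in both 3 d tables, at -2.04 and -2.63, and in all 13 d tables, at -0.60, -2.17 and -5.80 (13 d limma adjusted p = 0.0879).

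Some of these sites differed between the 3 d replicates. The sites chr17:22023735-22023802 and chr11:10531053-10531094 were above 1 in 3 d replicate 1, at 1.21 and 2.17, and below 1 in replicate 3, at -1.14 and -1.50, over the 4 and 2 fragments above 0 in all tables. Their fragments were mostly at 0 in 31 d replicate 2, 27 of 33 and 24 of 30. The site chr2:149639353-149639427 gave -1.42 and -2.32 at 3 d, and chr7:145694442-145694525 gave 0.84 and 1.66.

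The site chr1:565797-565842 changed most between days among the 8. Over the 5 of its 23 fragments above 0 in all 8 tables, it gave 2.56 and 2.77 at 3 d, then -2.44, -0.22 and -5.03 at 13 d, and -1.75, -6.75 and -1.70 at 31 d. In 31 d replicates 2 and 3, 17 and 8 of the 23 were at 0. Both 3 d values lay above all 6 later ones. The difference of 13 d from 3 d was -5.23 ± 1.71 (SE; limma adjusted p = 0.0357) and that of 31 d from 3 d was -6.07 ± 1.71 (SE; limma adjusted p = 0.0273). None of its overlapping alignments was of 20 to 24 nt and 1 was of 25 to 30 nt, while the largest site overlapped 65 and 95.

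The 112 fragments of the largest site allowed a look at position within a site. Fragments were put into 5 groups by the distance of the 5′ end from the first base of the site, with 10, 32, 27, 32 and 11 fragments. In 3 d replicate 1 the group medians were -0.12, -1.67, -0.14, 0.59 and 2.32 from the first to the last group. In 13 d replicate 2 they were -2.15, -1.95, -1.84, -0.31 and -0.32. In 31 d replicate 2 they ran the other way, at -3.49, -4.48, -5.30, -6.84 and -9.00, over the 46 fragments above 0 there. The ratio thus climbed with the position of the 5′ end in some tables and fell in others.

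**Figure D5:**
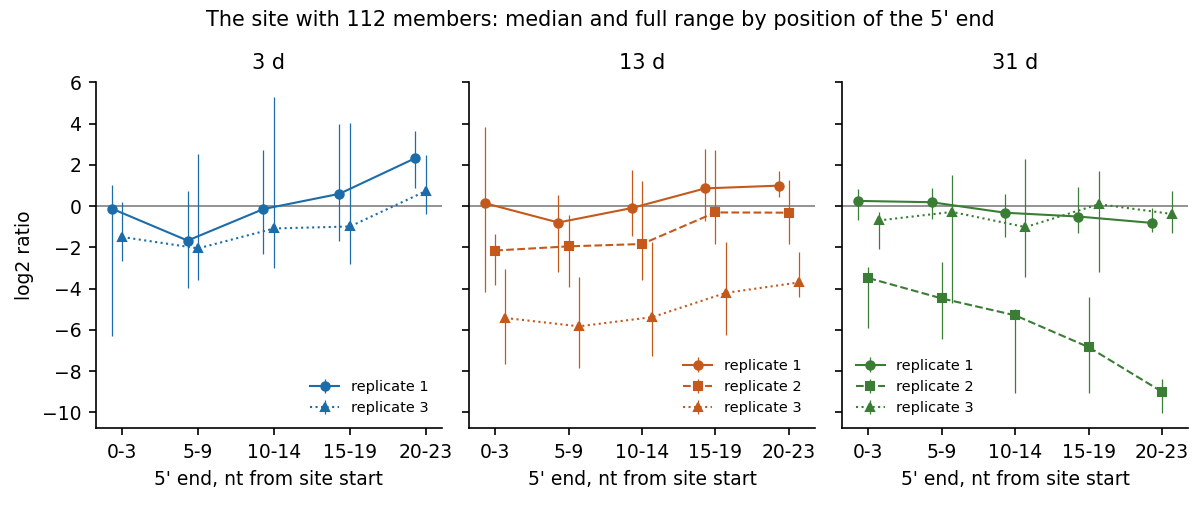
Log2 ratio of the fragments at chr11:122874321-122874375 above 0 in a table, by distance of the 5′ end from the first base of the site in nt; points are medians of a group, bars its lowest and highest fragment, 1 panel per day. The medians climb from -1.67 to 2.32 between the second and the last group in 3 d replicate 1 and fall from -3.49 to -9.00 in 31 d replicate 2.

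Across fragments of this site, the log2 ratio correlated with the 5′ end position at Pearson r = 0.634 and 0.415 in the 3 d tables, at 0.522, 0.641 and 0.542 in those of 13 d, and at -0.551, -0.745 and 0.190 in 31 d replicates 1, 2 and 3. All 5 tables of 3 d and 13 d had a positive and 2 of the 3 tables of 31 d a negative correlation. The fragments overlap, so these values describe this 1 site. Fragment length correlated with the same position at r = -0.428, and its part in the pattern was not tested.

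Sites were also described by their ends, a division made after the values were seen. Fragments with a single common 5′ end per site numbered 112 at 45 sites, those with a single common 3′ end 98 at 42 sites, and those of sites with several of both 1273 at 163 sites. A ratio above 8 in both 3 d tables was found for 43 fragments at 24 sites. Of these, 20 were among the 112 with a common 5′ end, none among the 98 with a common 3′ end, 20 among the 1273 and 3 among the 151 alone at their site. A ratio below 1/8 in both 3 d tables was found for 1 of the 112, none of the 98, 25 of the 1273 and 4 of the 151. The 112 as a whole had median log2 ratios of -0.034 and -0.32 in the 3 d tables, so the class as a whole was not high. The 20 were picked by their 3 d values, so their height there is given by the cut. The 43 had median log2 ratios of 0.27, 1.74 and -2.94 at 13 d and of -0.79, -6.92 and 1.04 at 31 d, with 17 at 0 in 31 d replicate 2 and 8 in 31 d replicate 3.

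Limma found 1 variance for all alignments, so that every fragment had the standard error 1.32 at 3 d and 1.08 at 13 d and 31 d, whatever the spread of its own tables. Library depth and the counts behind a ratio are not used here, because the value columns other than the ratio name no library, and no counting interval is given.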

How the data were processed

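Small RNA libraries of K562 cells were compared in 8 tables, each of 1 Dox and 1 water library, out of 17 libraries in the series (8 Dox, 8 water, 1 untreated, the last not analysed here). Bowtie2 2.2.9 and the build hg19 (GRCh37) are named in the submitters' processing notes. All values rest on the deposited ratio of the scaled values of both libraries, as the authors computed it: it equals the quotient of 2 other columns of its table. The 4 other value columns per table, 32 in all, name no library and were not used, so the reads behind a fragment are not given and the depth per library is unknown. The placing of reads that match several positions is not stated in these sources.

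Positions were written 1-based. Ratios above 0 were taken to log2 and fitted with limma 3.58.1 (R 4.3.3) by robust empirical Bayes (1 mean per day, Benjamini-Hochberg at 0.05 over alignments of all lengths); an alignment entered a day only when above 0 in all tables of that day. Sites were fitted in the same way on medians. Exact sign-flip permutation over tables tested medians and shares, adjusted over 6 tests. The script was tested on simulated data. Sites were named as the 8 with most fragments, and per day the 5 highest and 5 lowest called with at least 3 fragments and 1 direction in all tables of the day; fragments were named as the 3 highest and 3 lowest per day, likewise. The fragments, lists and tests were chosen with earlier results of these data known. Alternatives were centring of tables, a pseudocount of 0.1, other length limits, another way of merging sites, a fit without the robust option, a replicate block, each day alone and leaving out each table. Centring within length classes and leaving out 13 d replicate 3 with 31 d replicate 2 were added after seeing the data.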

Additional observations from a re-analysis of the deposited data

Results flagged for a closer look

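The ratio differed between days, by the contrast of the limma fit, for 46 fragments between 13 d and 3 d and for 41 between 31 d and 3 d. These were 3.46% and 7.48% of the fragments tested, against 11.3% and 7.47% of alignments of all lengths. These contrasts share the 3 d tables, and each p rests on the variance common to all alignments.

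The fragments of this paragraph were named as the highest or lowest at 3 d, and the differences reuse those values. The choice thus bears on their direction and size, and they are no separate support. At chr1:16872401-16872433 the log2 ratio at 13 d minus that at 3 d was -9.21 ± 1.70 (SE; limma adjusted p = 9.04e-05) and at 31 d minus 3 d -11.98 ± 1.70 (adjusted p = 6.71e-08). Its 31 d values were -1.78, -8.26 and 1.42, and replicate 2 was low for nearly all long fragments. At chr1:16872402-16872433 the differences were -8.73 (adjusted p = 0.00018) and -11.63 (adjusted p = 1.2e-07), and at chr1:146544845-146544878 they were -8.55 (adjusted p = 0.000254) and -11.19 (adjusted p = 3.43e-07). Of the fragments lower at 3 d, chr14:20811277-20811307 was higher at 13 d by 4.77 (adjusted p = 0.0462) and chr14:20811478-20811509 was higher at 31 d by 5.97 (adjusted p = 0.0166).

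The next fragments were named as the lowest at 13 d, for the first, or at 31 d, for the others, and differences from those days reuse these values. The fragment chr17:27188412-27188442 differed between 13 d and 3 d by -8.92 (adjusted p = 0.00014). The fragment chr1:565799-565832 differed by -5.36 at 13 d (adjusted p = 0.0207) and by -6.63 at 31 d (adjusted p = 0.00683), and chr11:122874343-122874373 by -5.36 at 31 d (adjusted p = 0.033).

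Among sites, chr1:565797-565842 differed from 3 d by -5.23 at 13 d (limma adjusted p = 0.0357) and by -6.07 at 31 d (adjusted p = 0.0273). The site chr1:147753543-147753577 differed by -6.96 at 13 d (adjusted p = 0.0372) and by -9.32 at 31 d (adjusted p = 0.0165). It was named by its 3 d value, and its values are of 1 fragment. With 2 or 3 tables per day, no single table was tested against the others of its day.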

How the results depend on the processing

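Counts are of calls with limma at an adjusted p under 0.05, in the order fragments at 3 d (51), 13 d (80) and 31 d (9), differences 13 d against 3 d (46) and 31 d against 3 d (41), and sites at 3 d (12), 13 d (3) and 31 d (0). The background given with them is the share of all alignments, or of sites of all lengths, called in the same fit. Centred tables gave 247, 222 and 39 fragments (background 15.8%, 17.45% and 3.6%). The pseudocount gave 31, 6, 5 and 6 for fragments at 3 d and 13 d and the 2 differences, and 5 sites at 13 d. Its background for these fragments and differences was 34.9%, 22.0%, 9.51% and 6.72%. Fragments of 33 to 42 nt gave 23 at 3 d, 27 for 31 d against 3 d, and 7 and 0 sites at 3 d and 13 d, with fewer fragments tested. The background was 3.69% and 7.47% for these fragments and 26.2% and 20.8% for these sites. Each day alone gave 27 at 3 d (background 2.25%), 147 at 13 d (background 16.2%), and 12 and 2 sites at 13 d and 31 d. Merging sites by a common 5′ end gave 7 at 13 d (background 15.8%).

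Leaving out 13 d replicate 3 and 31 d replicate 2 together gave 83, 3 and 0 fragments (background 5.70%, 2.22% and 0.565%). It gave 20 for 13 d against 3 d (background 8.57%), 29 sites at 3 d (background 31.3%), and 1 site at 13 d, which was higher. The differences between length classes then turned in sign, to 0.38 and 0.12 in the median log2 ratio against 20 to 24 nt and 25 to 30 nt, to -3.39 and -0.29 percentage points at 0, and to 0.22 at shared sites. With each table's own ratios above 0, 37 to 42 nt minus 31 to 33 nt was 0.031. Centring within length classes gave 207, 125 and 5 fragments (background 21%, 23.2% and 5.08%) and 72 and 68 differences (background 18.05% and 21.7%). It gave 48, 17 and 7 sites, with a background of 40.5% at 3 d.

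Leaving out each table in turn gave 14 to 72, 1 to 129 and 0 to 14 fragments by day, 12 to 60 and 15 to 54 differences, and 1 to 23, 0 to 11 and 0 to 2 sites. The 0 differences of 31 d against 13 d stayed 0. Median differences ranged from -0.78 to 0.078 against 20 to 24 nt, from -0.42 to -0.09 against 25 to 30 nt, from -0.50 to 0.16 for 37 to 42 minus 31 to 33 nt and from -1.09 to -0.21 at shared sites, and differences in percent at 0 from -3.32 to 5.55 and from -0.74 to 2.81. The cause of these changes was not tested.

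Whether replicate numbers pair the tables could not be settled. Deviations of same-numbered tables from their day means correlated at -0.52 to 0.309 over 26250 alignments. Over the 541 fragments they correlated at -0.272 to 0.443, and 6 of 7 such correlations were positive. The deviations of the tables of a day cancel out, so these correlations depend on each other. With the number as a replicate block, on the 541 fragments above 0 in all tables, there were 12, 3 and 0 calls by day and 2 and 1 differences. The background in that fit was 10.75%, 7.30% and 1.11% by day, and 6.69% and 0.488% for the differences. Of 27 called values of named sites and fragments, 22 stayed called after centring, 14 with the pseudocount and 19 of 24 with the block; none turned in sign under any alternative run. Depth could not be weighed, since the columns with counts name no library.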
